A study of Mus musculus with 8 samples.

Results

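The Notch receptors, ligands and targets described here were 10 genes, taken as a list of pathway genes by symbol and not by a measured value: the receptors Notch1, Notch2, Notch3 and Notch4, the ligands Jag1, Jag2 and Dll1, and the targets Hes1, Hey1 and Heyl. They are 10 of the 38293 gene identifiers counted in the bulk libraries. RNA was sequenced from organoids of PyMT mammary tumors, which arise in mice carrying the polyoma middle T oncogene under the MMTV promoter; the same mice carried MMTV-Cre and an E-cadherin-mCFP reporter allele, so all groups share these alleles. Bulk libraries came from 2 control lines (WT1 and WT3) and 3 SOX4KO lines (H7, M4 and H4) made with CRISPR/Cas9, and single-cell libraries from 1 control line (GR17) and 2 SOX4KO lines (GR18 and GR19). Organoids had been split to single cells and grown for 4 days in DMEM/F12 medium with B27 and FGF2, without further treatment. Each line is a clone, so p-values measure the spread between clones, and the labels do not tie the single-cell lines to the bulk lines.

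Notch receptors are cell surface proteins that are cut when a ligand on a neighbouring cell binds them. The freed intracellular part enters the nucleus and joins the DNA-binding protein RBPJ and Mastermind-like coactivators to switch on targets such as the Hes and Hey repressors. In the mammary gland the pathway is known for its part in the choice between the luminal (milk-secreting side) and basal (myoepithelial side) lineages.

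Reads on genes numbered 3050323 to 4678497 per bulk library, and the single-cell libraries held 7714119 to 8296953 unique molecular identifiers (UMIs, each standing for 1 captured molecule) in 362 to 369 cells. Sox4, the targeted gene, had 295 and 374 normalized CPM (counts scaled to a common library size) in WT1 and WT3 and 199, 179 and 299 in H7, M4 and H4, a log2 fold change of -0.57 ± 0.25 (SE) with an adjusted p of 0.277 in edgeR's quasi-likelihood test. The highest SOX4KO line lay inside the control range. In the single-cell libraries Sox4 had 118 CPM in GR17, 82.5 in GR18 and 110 in GR19, so GR19 was near the control library. An insertion or deletion in the coding sequence need not lower the transcript, so this level does not check the labels. Summed CPM of 14 basal markers were 2226 and 1414 in control against 5418, 7562 and 2860 in SOX4KO lines. Of the 14, Acta2, Myh11, Cnn1 and Tagln averaged under 1 CPM and add little to these sums. Of the 10 basal markers tested, 5 were called higher in edgeR at an adjusted p under 0.1, against 4.1% of all genes tested. Not all rose: Krt14 had 908 and 1206 raw reads in control against 412, 1671 and 782 in SOX4KO lines. Krt17 had 45 and 40 against 31, 16 and 1. The most counted of the 14, Sparc, held most of the CPM sums, which without it were 924 and 681 against 1655, 2219 and 1168. Summed CPM of 20 luminal markers were 3297 and 3314 against 2725, 2549 and 4960. Of 15 tested, 1 was called higher and 1 lower, against 4.1% and 2.17% of all genes tested. Without the casein gene Csn3, which had 2287 CPM in H4, the luminal sums were 2960 and 3043 against 1984, 2384 and 2672, with all SOX4KO lines below both control lines. Markers of endothelial cells, which also use Notch, summed to between 1.81 and 4.68 CPM, with 3 of 7 at 0 in every line. In the single-cell libraries the basal sums were 5179, 5438 and 3191 CPM in GR17, GR18 and GR19. The luminal sums there were 1740, 2058 and 3773 CPM. The higher basal sum of the bulk SOX4KO lines was thus not seen in GR19, and both SOX4KO libraries had the higher luminal sums. The part of these marker differences in the results that follow was not tested.

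Promoter sequences were available from RefSeq (GRCm38.p6) for 7 of the 10 members, in 8 windows of 250 bases before an annotated start; Hes1, Hey1 and Heyl had none. The 2 windows that overlap no exon of their own gene are shown, since their genes, a receptor and a ligand, had opposite patterns between the single-cell clusters described further on.
Notch3, chr17:32166891-32167140, minus strand: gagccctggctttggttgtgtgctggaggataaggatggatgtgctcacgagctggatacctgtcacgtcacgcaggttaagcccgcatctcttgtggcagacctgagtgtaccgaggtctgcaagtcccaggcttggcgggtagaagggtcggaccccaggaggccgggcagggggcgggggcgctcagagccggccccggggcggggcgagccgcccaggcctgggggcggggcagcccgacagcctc
Dll1, chr17:15376933-15377182, minus strand: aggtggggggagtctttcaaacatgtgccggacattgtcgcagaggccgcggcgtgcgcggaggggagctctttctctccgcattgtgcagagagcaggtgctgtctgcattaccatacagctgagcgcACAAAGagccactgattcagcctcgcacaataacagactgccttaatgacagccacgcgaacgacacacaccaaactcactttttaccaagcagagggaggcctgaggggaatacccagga
Both strands were searched first for AACAAAG, letters bound by SOX factors, and GTGGGAA, letters bound by RBPJ. Neither was present in any of the 8 windows, against 5.03% and 5.42% of all 32851 windows of that length. The shorter letters ACAAAG and TGGGAA, which lie within the longer ones, were searched only after the windows had been seen and the longer letters had matched nothing. ACAAAG then occurred once, in the Dll1 window, where it is in capitals and starts 121 bases before the RefSeq start that this window precedes (a start that lies upstream of the GENCODE gene end given further on), and TGGGAA in none. Over all windows, 16.5% held ACAAAG and 21.6% TGGGAA, so a match in 1 of 8 is not set apart from the rest. These are matches of letters and not binding sites.

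In bulk RNA, the ligand Jag2 was called higher and the target Hey1 lower in SOX4KO lines, and neither passed an adjusted p under 0.05. The other 6 members tested did not pass an adjusted p under 0.1 over all 11682 genes tested. The targets did not move together: Hes1 was higher without passing, and Nrarp, a target outside the members, was called higher. Of the 10 members, 8 had enough counts to be tested, since Notch4 had 1 to 11 reads per line and Heyl a single read in H7 and 0 in the other 4 lines. The 1 member called higher and the 1 called lower stand against 4.1% and 2.17% of all genes tested, and 6.27% in either direction. Bulk RNA cannot tell fewer cells of a type from less RNA per cell.

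Among the receptors, Notch1 (ENSMUSG00000026923, chr2:26457903-26516663 in GRCm38) had 226 and 242 CPM in WT1 and WT3 and 157, 130 and 185 in H7, M4 and H4. All SOX4KO lines lay below both control lines. The means were 234 ± 11 (SD, n = 2) and 157 ± 27.9 (SD, n = 3), and the log2 fold change of -0.57 ± 0.19 (SE) did not pass, with an adjusted p of 0.166 in edgeR. Notch2 (ENSMUSG00000027878, chr3:98013527-98150361) had 88.3 and 76.7 CPM in control against 94.5, 76.7 and 118 in SOX4KO lines, with an adjusted p of 0.646. The groups overlapped. Notch3 (ENSMUSG00000038146, chr17:32120820-32166852) had 116 and 107 CPM against 103, 99.7 and 178, with an adjusted p of 0.780. Only H4 was above the control lines, and the log2 fold change of 0.19 ± 0.27 (SE) turned to -0.14 without it. Per kilobase of exon, the mean control levels were 16.4 for Notch1, 13.8 for Notch3 and 7.65 RPKM for Notch2, and 0.0926 for Notch4, with SDs of 0.771, 0.732, 0.761 and 0.0961 (n = 2).

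Among the ligands, transmembrane proteins shown to receptors on the next cell, Jag2 (ENSMUSG00000002799, chr12:112907819-112929776) had 62.9 and 47.4 CPM in WT1 and WT3 and 117, 109 and 87.7 in H7, M4 and H4. Every SOX4KO line was above both control lines. The fold was 1.89, a log2 fold change of 0.92 ± 0.21 (SE, 95% interval 0.44 to 1.40), with an adjusted p of 0.0575 in edgeR. The call was lost without WT1 (adjusted p 0.181), without WT3 (0.567) or without H7 (0.107), while the direction stayed. Jag1 (ENSMUSG00000027276, chr2:137081456-137116644) had 49.4 and 27.9 CPM against 80.4, 79.2 and 57.7, also with no overlap of the groups. Its log2 fold change of 0.91 ± 0.28 (SE) had an adjusted p of 0.131 in edgeR and of 0.0689 in DESeq2. With a line left out, edgeR gave 0.0883 without H4, 0.139 without WT1, 0.223 without H7, 0.174 without M4 and 0.762 without WT3, where the log2 fold change was 0.55. Dll1 (ENSMUSG00000014773, chr17:15367354-15376872) had 44.8 and 94.6 CPM against 108, 71.3 and 164, so the groups overlapped, and the adjusted p was 0.400 for a log2 fold change of 0.72 ± 0.40 (SE), which was 0.28 without WT1, 1.36 without WT3 and 0.37 without H4.

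Among the targets, Hey1 (ENSMUSG00000040289, chr3:8663359-8667256), a repressor of transcription of the hairy family, had 192 and 220 CPM in WT1 and WT3 and 129, 104 and 146 in H7, M4 and H4. All SOX4KO lines were below both control lines. The control mean was 1.63 times the SOX4KO mean in the fit, a log2 fold change of -0.70 ± 0.19 (SE, 95% interval -1.14 to -0.26) with an adjusted p of 0.0973 in edgeR. That call was lost without WT1 (adjusted p 0.323), without WT3 (0.666) or without H7 (0.147). Hes1 (ENSMUSG00000022528, chr16:30064384-30067796), a related repressor, had 86 and 96.8 CPM in control against 114, 127 and 143 in SOX4KO lines. The groups did not overlap, with the SOX4KO lines higher, and the log2 fold change of 0.49 ± 0.18 (SE) had an adjusted p of 0.197 in edgeR. In 5 of the 8 members tested the groups did not overlap, 3 with SOX4KO higher and 2 lower, against 36.9% of all genes tested, 19% higher and 17.9% lower.

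**Figure D1:**
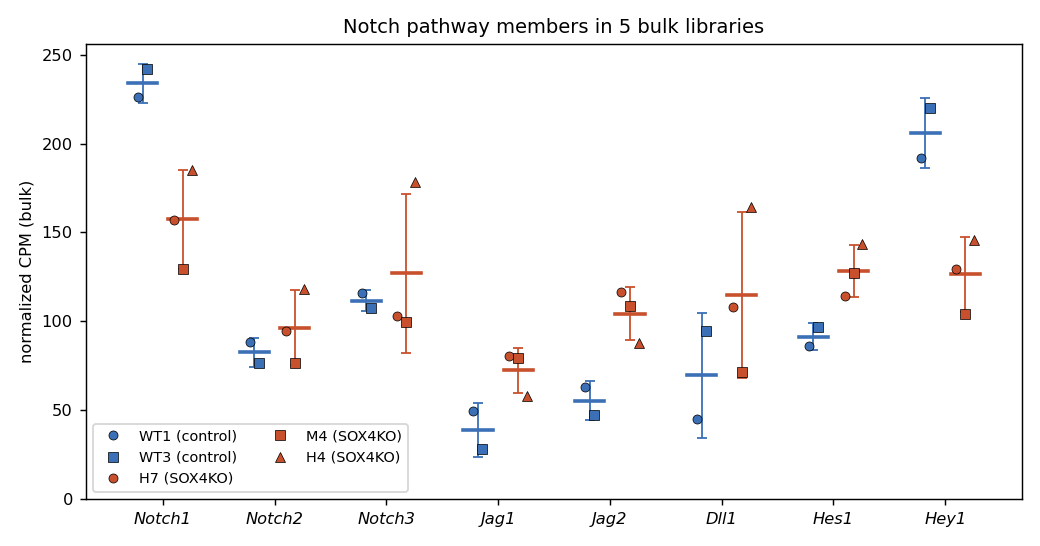
Normalized CPM (vertical axis, from 0) of the 8 members tested, with a point for each of the 5 bulk lines, a bar at each group's mean and error bars of 1 SD. The SOX4KO points of Jag2 lie between 87.7 and 117 CPM, above the control points, and those of Hey1 between 104 and 146 CPM, below them.

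The other genes of the pathway came from a list of 54 that holds the members, of which 44 were tested. Beside Jag2 and Hey1, Nrarp was called, so 3 of the 44 were called, against 6.27% of all genes tested. Nrarp, a target that encodes a feedback inhibitor of Notch, had 7.51 and 6.97 CPM in control against 11.2, 20.5 and 20.8 in SOX4KO lines. All SOX4KO lines were higher. Its log2 fold change was 1.27 ± 0.35 (SE) with an adjusted p of 0.0975 in edgeR. The call held in 1 of 5 fits that left out a line, being lost without WT1 (adjusted p 0.370), WT3 (0.580), M4 (0.140) or H4 (0.170). An antisense gene, Gm38287, covers 79.4% of the exon length of Nrarp. The strand setting used in counting is not given in the sources used here. Whether reads there were counted for Nrarp, for the other gene or set aside as ambiguous is therefore not known. The same holds for 20.5% of Dll1, 7.5% of Notch1 and 6.03% of Notch3, covered by genes on the other strand. Notch2 shares 5.02% of its exon length with Gm42820 on the same strand.

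By role, the genes called were 0 of 10 proteases that mature and cut the receptors, 0 of 6 genes of the nuclear complex, 0 of 3 corepressors, 0 of 8 inhibitors tested, 0 of 4 fringe and glycosylation genes tested and 0 of 3 ubiquitin ligases acting on ligands. At an unadjusted p under 0.05 edgeR gave 3 proteases, 1 fringe and glycosylation gene and none of the other 4 roles just named, and 10 genes of the list in all, against 18.1% of all genes tested. Adam10 encodes the metalloprotease that makes the first cut after a ligand binds. It averaged 300.3 ± 19.8 CPM in the 2 control lines (SD) and 404 ± 68 in the 3 SOX4KO lines, with an adjusted p of 0.320 in edgeR. Rbpj had 32.6 ± 2.52 and 40.6 ± 11.5 CPM, with an adjusted p of 0.579. Nedd4, a ubiquitin ligase with the highest level among the inhibitors, had 1546 ± 63.9 and 1266 ± 303 CPM, with an adjusted p of 0.606. The median log2 fold change was 0.36 over the 8 members tested, 0.08 over the other 36 list genes tested and 0.01 over all genes.

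In the single-cell libraries, Notch1 was lower in both SOX4KO libraries, as in the bulk values, while Jag2 and Hes1 had the other sign than in bulk. With 1 control library no test was made, genotype and library cannot be told apart, and intervals cover counting error only. No member was at least 2-fold higher or lower in both SOX4KO libraries, where 1.92% and 0.317% of the 6303 genes averaging 20 CPM or more were. Of the 7 members at that level, 3 were above the control library in both SOX4KO libraries and 3 below, against 38.8% and 42.5% of those genes.

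Notch1 had 109 CPM (95% Poisson interval 102 to 117) in GR17, 81.4 (75.3 to 87.9) in GR18 and 54.4 (49.5 to 59.6) in GR19. Both SOX4KO libraries were lower, at 0.744 and 0.497 of the control level. Notch3 had 19.2, 31 and 24.6 CPM, ratios of 1.61 (1.31 to 1.99) and 1.28 (1.03 to 1.59). Dll1 had 20.1, 29.2 and 34.6 CPM, ratios of 1.45 (1.18 to 1.79) and 1.72 (1.41 to 2.11). These receptor and ligand levels were higher in both SOX4KO libraries. Jag2 had 20, 16.4 and 15.8 CPM, ratios of 0.819 (0.644 to 1.04) and 0.791 (0.622 to 1.005), both intervals reaching 1. The bulk rise of Jag2 had no counterpart in these libraries, whose lines the labels do not tie to the bulk ones.

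Jag1 had 52.9, 63.7 and 49.5 CPM, above control in GR18 and within counting error of it in GR19. Notch2 had 25.5, 27.6 and 28.6 CPM, with both ratio intervals including 1. Hes1 had 284, 255 and 209 CPM, ratios of 0.897 (0.844 to 0.953) and 0.735 (0.690 to 0.783), lower, while the bulk SOX4KO values were higher without passing the test. Hey1 had 162, 155 and 127 CPM, ratios of 0.955 (0.883 to 1.03) and 0.780 (0.718 to 0.847), lower beyond counting error in GR19 only. Notch4 had 10, 6 and 6 UMIs. Heyl has no row in the single-cell tables, so no level is given for it.

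**Figure D2:**
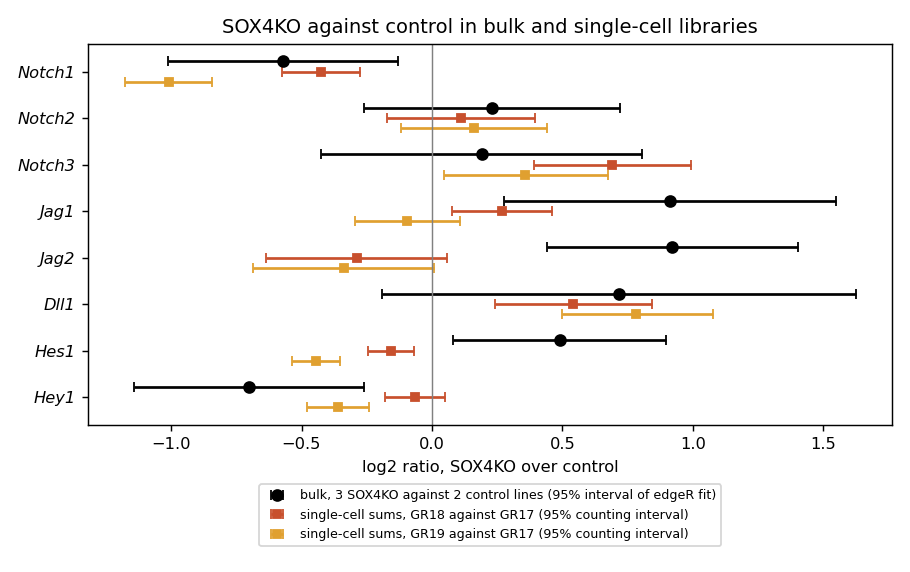
Log2 ratio of SOX4KO over control (horizontal axis) for the 8 members tested in bulk, with the edgeR fold change and its 95% interval in black and each SOX4KO single-cell library against GR17 with its 95% counting interval in colour. Notch1 lies left of 0 in all 3 comparisons, while Jag2 lies at 0.92 in bulk and left of 0 in both single-cell libraries.

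To place the members in kinds of cells, 1100 cells were clustered on variable genes from which the pathway list had been removed, so that no member helped to form a cluster. Of the 7 clusters, A, B, C and G were called basal-like and D and E luminal-like. Cluster F, with 118 cells of which 103 were control, stayed unnamed. It leaned to the luminal list, with a basal minus luminal gap of -0.56, but fell short of the limit for a name. Names rest on a gap of over 1 between the median log2 levels of the basal and luminal lists, a limit chosen after the data had been seen. From these lists only the 10 basal and 15 luminal genes that reached 5 CPM in a cluster were used. Cluster C lay at that limit, with a gap of 1.02, and was unnamed once wells of over 2 times the median UMIs were left out. Most basal-like control cells were in B (206 of 215) and nearly all SOX4KO ones in A, C and G. No basal marker was among the 10 leading genes of A, C or G, and those of G held 4 G2M genes. Clusters also differed in genes of the S phase of the cell cycle. Their median log2 level, relative to the mean over clusters, was -1.30 in A and -1.29 in E. It was 0.89, 1.13 and 0.95 in B, C and D, -0.27 in F and -0.066 in G. The part of the cell cycle in the cluster contrasts that follow was not tested. The leading genes of D include Itgam and Cd209c, known from myeloid cells, and Ltf of the luminal list. Those of E include Foxi1 and, from the luminal list, Kit and Wfdc18. Over whole libraries, 7 immune markers, 4 of them absent, summed to 2.72, 2.50 and 2.53 CPM in GR17, GR18 and GR19.

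The ligands had higher levels in basal-like than in luminal-like clusters. Jag1 had 84.4, 57.3, 92.5 and 63 CPM in A, B, C and G, and 21.2 and 5.37 in the luminal-like D and E. Jag2 had 21, 29, 26.5 and 28 CPM in the former and 3.67 and 0.716 in the latter, from 17 and 2 UMIs. Dll1 had 47.1, 25.8, 46.4 and 29.2 CPM against 9.71 and 20.1. For each ligand the Poisson interval of every basal-like cluster lay above that of D, and all but Dll1 in B and G lay above that of E. Cluster F had 64.2 CPM of Jag1, a level like the basal-like clusters, and 5.44 of Jag2, near the luminal-like ones.

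Within each library the same contrast was made. Basal-like over luminal-like ratios of Jag1 were 2.91 (1.91 to 4.62) in GR17, 8.88 (6.03 to 13.6) in GR18 and 4.25 (3.24 to 5.66) in GR19. Those of Jag2 were 8.94, 6.81 and 15.8, on 4, 9 and 6 luminal-like UMIs, and those of Dll1 were 5.24, 3.16 and 2.69. All 3 ligands were thus at least 2-fold lower in luminal-like cells of every library. Of the 7 members averaging 20 CPM or more, Jag1 and Dll1 were past this fold and none was 2-fold higher in luminal-like cells of every library, against 1.84% and 1.05% of all genes at that level. Jag2 averaged less than 20 CPM and stands outside that background. With a coarser clustering (resolution 0.3), in which 9 control cells were basal-like, Jag2 alone was past the fold in all 3 libraries. Jag1 also fell short of it with 20 principal components and with a naming gap of 0.5, which puts F among the luminal-like clusters, so it was past the fold in 2 of 5 alternatives, while Jag2 was in all 5 and Dll1 in 4. After each cell was thinned to 5000 UMIs, Jag1 had a UMI in 24.8%, 31.3% and 27.3% of basal-like cells and in 6%, 2.75% and 8.4% of luminal-like cells. Before thinning the shares were 62.3%, 66.7% and 67% against 25.5%, 18.3% and 26%, at median depths of 19528 to 20907 and 22771 to 24963 UMIs.

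Notch3 had the reverse pattern. It had 35.4 and 59.1 CPM in D and E, 39.7 in F, and 25.5, 5.67, 10.9 and 15 in A, B, C and G. Luminal-like over basal-like ratios were 7.39 (4.55 to 12.3) in GR17, 3.39 (2.60 to 4.44) in GR18 and 2.03 (1.52 to 2.73) in GR19. With 1 CPM added, as in the fold rule, the last was 0.98 on the log2 scale, just short of the 2-fold limit, so Notch3 was not counted. Basal-like Notch3 was 5.63 CPM in GR17 and 17.3 and 17.1 in GR18 and GR19, while luminal-like Notch3 was 41.6, 58.5 and 34.6.

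Notch1 and Notch2 were not past 2-fold in all libraries. Notch1 was highest in F, at 146 CPM, and lowest in C, at 52.6, and its luminal-like over basal-like ratios were 0.929, 0.594 and 0.956. Notch2 had between 20.7 and 30.9 CPM in the 7 clusters, with ratios of 0.459, 1.10 and 0.771. The targets had luminal-like over basal-like ratios of 2.26, 1.39 and 1.55 for Hey1 and 1.37, 1.33 and 1.14 for Hes1, but clusters did not all follow: basal-like A had 179 CPM of Hey1 and 269 of Hes1, above luminal-like D at 165 and 249.9 CPM. Both were highest in F, at 249 and 343 CPM, and lowest in C, at 86.1 and 157. Summed over the members, ligands had 112, 152 and 149 CPM in basal-like and 27.7, 25.7 and 36.9 in luminal-like cells of GR17, GR18 and GR19, targets 352, 367 and 301 against 579, 495 and 384, and receptors 136, 138 and 105 against 151, 144 and 113.

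**Figure D3:**
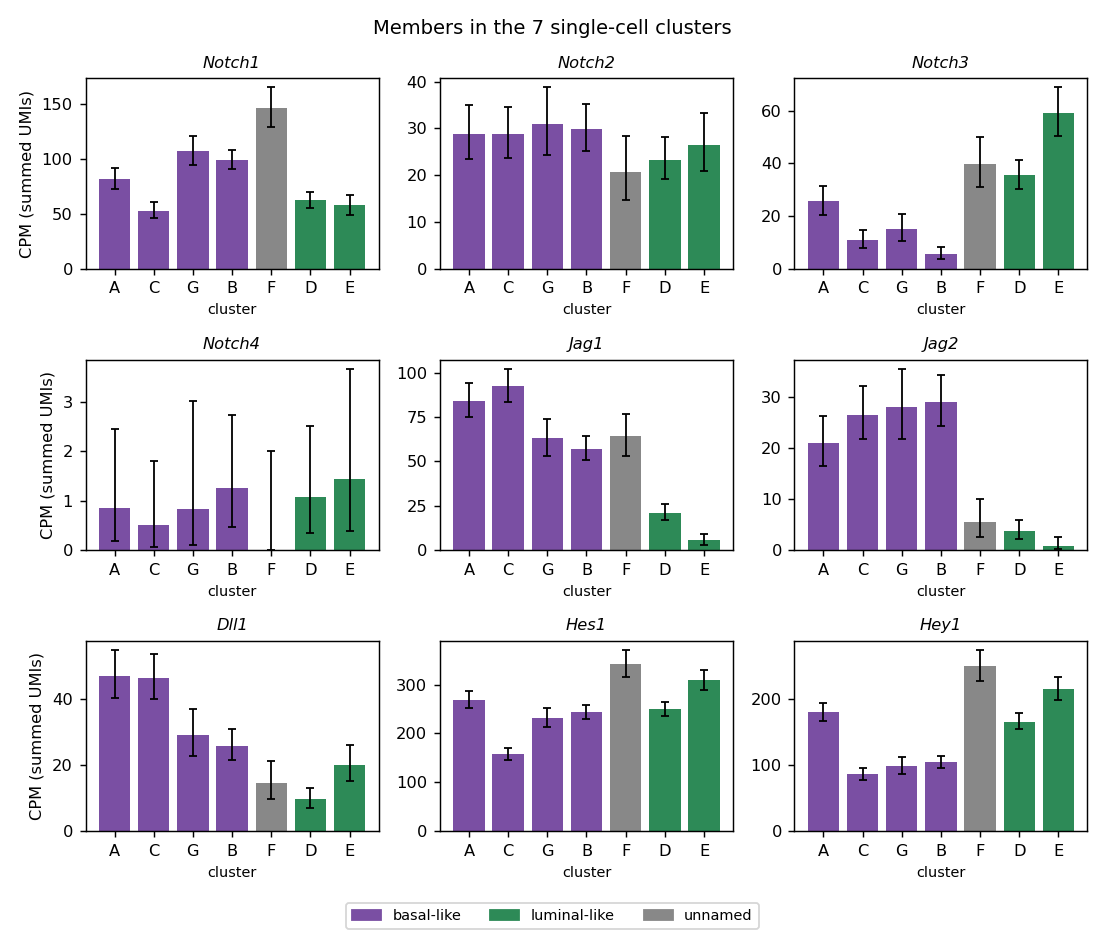
CPM from summed UMIs (vertical axes, each from 0) of the 9 members with any UMI in clusters A to G, coloured by cluster name, with 95% Poisson intervals. Jag1, Jag2 and Dll1 are lowest in D or E, while Notch3 is highest in E at 59.1 CPM.

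**Figure D4:**
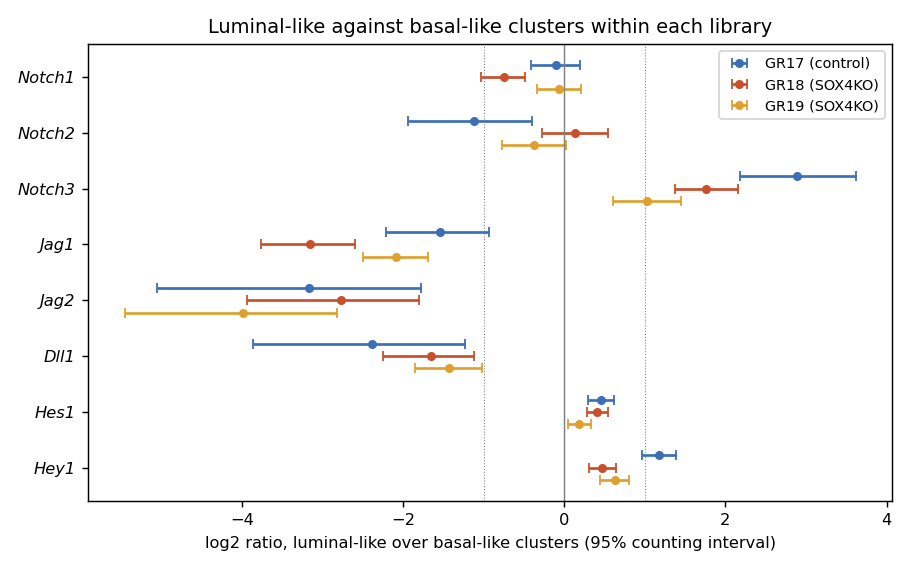
Log2 ratio of luminal-like over basal-like CPM (horizontal axis) within each single-cell library for 8 members, with 95% counting intervals and dotted lines at 2-fold. The 3 ligands lie left of 0 and Notch3 right of 0 in all 3 libraries.

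Between libraries, luminal-like clusters held 51 of 369 cells in GR17, 109 of 369 in GR18 and 131 of 362 in GR19, so a library level mixes kinds of cells in different shares. This order depends on the unnamed cluster F: the luminal-like cells were 154, 117 and 138 with a naming gap of 0.5, and 149, 113 and 134 with 20 principal components. The luminal-like cells themselves lay in D and E at 36 and 15 cells in GR17, 46 and 63 in GR18 and 76 and 55 in GR19, and D and E differed in level (9.71 and 20.1 CPM for Dll1, 165 and 215 for Hey1). Within luminal-like cells Notch1 was 0.602 (0.468 to 0.776) and 0.577 (0.455 to 0.735) of the control level in GR18 and GR19, and Hey1 0.788 (0.681 to 0.912) and 0.654 (0.567 to 0.756). Dll1 was 2.47 (1.02 to 7.22) and 3.62 (1.58 to 10.2) times the control level there, on 6 control UMIs, and 1.49 and 1.86 times in basal-like cells. The luminal-like ratios leave out the 103 control cells of F, which had 15.4 CPM of Dll1, 151 of Notch1 and 260 of Hey1. Ratios to control with F counted as luminal-like are not given. Within D alone, Notch1 had 95.6, 59.2 and 49.4 CPM in GR17, GR18 and GR19, Hey1 265, 143 and 136, and Dll1 4.11, 8.36 and 13 (4 control UMIs), in the same directions. In basal-like cells Notch1 was at 0.940 (0.827 to 1.07) and 0.561 (0.480 to 0.653) of the control level, the former within counting error. Hey1 was at 1.28 (1.14 to 1.44) and 0.957 (0.843 to 1.09) of the control level there.

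Across the cells of a library, Notch3 had Pearson correlations of -0.45, -0.30 and -0.32 with the basal marker score. With the luminal score they were 0.37, 0.40 and 0.29. The 369, 369 and 362 cells share a library but differ in depth, which was not held fixed. With the basal score Jag2 had 0.30, 0.24 and 0.32, Jag1 0.12, 0.25 and 0.31, and Dll1 0.17, 0.20 and 0.27. The 95th percentile of 3553 genes was 0.18, 0.25 and 0.23 and the 5th -0.14, -0.18 and -0.21. These genes had a UMI in at least 50% of the cells of every library and were on no marker or cell cycle list. Jag1 in GR17, Jag2 in GR18 and Dll1 in GR17 and GR18 lay between those percentiles. Jag2, Dll1 and Notch3 had a UMI in fewer cells than the genes they are set against. Genes most like each member with a UMI in at least 50% of the cells of every library were sought among 3605 genes, by the mean of the 3 within-library correlations. For Hey1 these were Trf (0.40), which encodes the iron carrier transferrin, Inhbb (0.37), an inhibin and activin subunit, and Aldoc (0.32), an aldolase. For Hes1 they were Junb (0.26), Egr1 (0.25) and Fos (0.25), immediate early genes. For Jag1 they were Fam101b (0.31), Emb (0.30) and Cmah (0.29), and for Notch1 Cdkn1a (0.26), Ephx1 (0.23) and Son (0.20).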

How the data were processed

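Bulk RNA was sequenced from 5 organoid lines and single-cell RNA from 3. The authors deposited gene-level read counts of each bulk line and UMI counts of each well of a 384-well plate, in both cases as whole numbers and not normalized. Per the submitters' processing notes STAR 2.4.2a, HTSeq, Picard, edgeR, DESeq and Seurat were used and NCBIM37 (mm9) is named as build, without roles. Positions and lengths here are those of GENCODE in GRCm38, matched by identifier (36345 of 38293), and are not the authors' build. The bulk kit was directional, but the strand setting of the counting is not given in the sources used here.

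The summary lines of HTSeq stayed out of library sizes; reads on no feature were 46.6% to 64.7% of the total. The quasi-likelihood test of edgeR 4.0.16 under R 4.3.3 (two-sided, after filterByExpr and TMM) was run over 11682 genes, with Benjamini-Hochberg adjustment and calls at an adjusted p under 0.1. Between lines of a group, chi-square values divided by degrees of freedom were 9.22 to 24.8, so no pair is a repeat of 1 library. Wells with at least 1000 UMIs were kept after spike-ins were removed (15, 15 and 22 left out). Well barcodes, 384 shared by all 3 plates, are plate positions. No doublet caller was run, and 8, 20 and 11 wells had over 2 times their library's median UMIs. Cells were clustered with Seurat 5.3.0 (2000 variable genes less the Notch pathway list, leaving 1989; 10 principal components, 20 neighbours, resolution 0.5; genes in at least 3 cells). UMIs were summed by library and cluster, with exact Poisson intervals at 95%, 1 CPM added for the 2-fold rule, and a floor of 3 counts. The fit and the library sums were tested on simulated data.

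The members, lists and tests were chosen with earlier results of these data known. All members are named; of the other pathway genes, those called in bulk, and examples among the 1 or 2 of highest level per role; Sox4; and the 3 genes most like a member. Rbpj was named outside this rule after its values were seen, for its role. The limit for naming clusters, the 6-letter motifs and the fits without wells of over 2 times the median UMIs were chosen after seeing the data. Other alternatives were DESeq2 1.42.0, its size factors, no filter, an adjusted p under 0.05, each line left out, other UMI minimums and pseudocounts, and other clusterings.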

Additional observations from a re-analysis of the deposited data

Results flagged for a closer look

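Jag1 was above control in basal-like and below it in luminal-like clusters when each SOX4KO library was set against the control library. In basal-like clusters it was 1.59 (95% counting interval 1.37 to 1.85) times the control level in GR18 and 1.30 (1.11 to 1.53) times in GR19. In luminal-like clusters it was 0.520 (0.289 to 0.942) and 0.892 (0.549 to 1.49) of the control level, the latter within counting error. These luminal-like ratios leave out the unnamed cluster F. Its 103 control cells had 65.6 CPM of Jag1 from 111 UMIs, against 19.6 CPM from 24 UMIs in luminal-like control cells. Jag1 ratios to control with F counted as luminal-like are not given. The difference between the kinds of clusters was not tested, since there is 1 control library, and the cells lie in different clusters by library. Within the luminal-like cluster D alone Jag1 had 23.6, 13.9 and 24.7 CPM in GR17, GR18 and GR19, and in E, which held 15 control cells, 5.76 and 5.28 CPM in GR18 and GR19. Basal-like control cells lie mostly in cluster B while those of the SOX4KO libraries lie in A, C and G.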

How the results depend on the processing

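No paired analysis was possible because the lines are independent clones and their numbers pair nothing. The count of bulk genes called, 733, was 1686 without the filter, 354 at an adjusted p under 0.05, and 56 to 1006 with a line left out; DESeq2 gave 963. The 2 members called were 5 without the filter, 0 at an adjusted p under 0.05 and 0 to 3 with a line left out (0 without WT1, WT3 or H7), and 3 by DESeq2. The 3 pathway genes called were 9, 0 and 0 to 4 under those settings, and 4 by DESeq2. Leaving out a control line leaves 1, which is assumed to vary like the SOX4KO lines. The Notch3 log2 fold change was -0.14 to 0.33 with a line left out, below 0 without H4. Of 64 alternative member fold changes in bulk, 52 kept direction and side of the threshold. The count of 3 members past 2-fold between kinds of clusters was 1 (Jag2) at resolution 0.3, where only 9 control cells were basal-like. It was 2 (Jag2 and Dll1) with a naming gap of 0.5, and with 20 principal components Jag2 and Dll1 were lower and Notch3 higher in luminal-like cells. Without wells of over 2 times the median UMIs it was 4, with Notch3 higher. No member was past 2-fold in both SOX4KO single-cell libraries at any UMI minimum or pseudocount tried. Depth limits Notch4 and Heyl, and Jag2 in luminal-like cells.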
